A study of Drosophila melanogaster with 6 samples.

Results

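The miR-2, miR-13 and miR-308 family was followed in small RNA libraries from *Drosophila melanogaster* ovaries. Its members were all counted arms of 9 precursors, dme-mir-2a-1, dme-mir-2a-2, dme-mir-2b-1, dme-mir-2b-2, dme-mir-2c, dme-mir-13a, dme-mir-13b-1, dme-mir-13b-2 and dme-mir-308. They made up 18 of the 474 rows of the deposited table and 15 of its 466 mature names, because miR-2a-3p, miR-2b-3p and miR-13b-3p each have a row for both of their precursors. Such a pair of rows was taken as 1 measurement and read from the row with the higher summed count. Ovaries came from 7-day-old flies of 3 genotypes cultured at 25 degrees, with 2 libraries each. The mei-p26 genotype is a mutant of the gene for Mei-P26, a TRIM-NHL protein of the germline that acts with the miRNA pathway, and the allele is not named. The wh7 genotype is a mutant of wuho, whose WD40 protein is required in fly germ cells. The control was w1118, a laboratory strain with white eyes, and both mutants were in the same strain background. The labels name no transgene, no driver and no further allele, and do not say whether flies were pooled. At issue is which miRNAs of the ovary change in either mutant relative to the control strain, and which set the mutants apart.

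A miRNA precursor is a hairpin from which Drosha and Dicer enzymes cut a 5p and a 3p arm, and the arm kept by an Argonaute protein guides it to messenger RNAs. Target choice rests mostly on the seed, a short stretch near the 5′ end of the arm. The 3p arms of this family share a seed that pairs with the K box, a motif in the 3′ untranslated regions of many Notch target genes of flies. In fly embryos and cell culture this family also represses the cell death genes reaper, grim and sickle. In the annotation of a later genome release than the BDGP5 build of the files, used here for names and neighbours only, mir-2a-1, mir-2a-2 and mir-2b-2 lie together in an intron of spi, which encodes the epidermal growth factor receptor ligand Spitz. The precursors mir-2c, mir-13a and mir-13b-1 lie together in lncRNA:CR45911, a long noncoding RNA. The other 3 stand alone within protein-coding genes, mir-2b-1 over an exon of the kinase gene Btk, mir-13b-2 in an intron of the chaperonin gene CCT2 and mir-308 in an intron of the ribosomal protein gene RpS23. Arms of the same precursor, and precursors of the same transcript, are not independent measurements.

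Library totals were 229276 and 249262 counts in mei-p26, 149520 and 228031 in wh7, and 152848 and 144175 in w1118. Levels are given as CPM, the count relative to the library's total after TMM scaling, which sets the libraries on a common scale by the bulk of their miRNAs. If each count is a separate molecule, replicates of a genotype differed by more than sampling noise. That held also over the 9 tested family names alone (chi-square tests of the counts, p = 6.56e-15 in mei-p26, 6.97e-16 in wh7 and 4.81e-13 in w1118). Counts may include PCR copies, which these tests and the counting intervals below do not allow for. The labels do not say if duplicates are of different flies. The p-values therefore reflect only how far these libraries scatter, and that scatter may be technical. Markers of follicle cells were above 3 counts in every library for 3 of 3 names. They summed to between 135011 and 176728 CPM in mei-p26, between 302932 and 330242 in wh7 and between 314114 and 377205 in w1118. The germline and general ovary list was likewise above 3 counts for 3 of 3 names, at 61617 to 67344 CPM in mei-p26, 58826 to 66840.3 in wh7 and 71495 to 91806 in w1118. Muscle markers, with 1 of 2 above 3 counts in every library, summed to 22529.9 to 27337 CPM in mei-p26, 22988 to 24011 in wh7 and 10885 to 16839 in w1118. The single gut and Malpighian tubule marker was at 229 to 302 CPM in mei-p26, 3683 to 4270.3 in wh7 and 1911 to 2250.1 in w1118. The testis list, 5 of 7 above 3 counts throughout, ran from 17233 to 24797 CPM in mei-p26, 1235 to 1377 in wh7 and 688 to 888 in w1118. Early embryo markers, 0 of 3 above 3 counts throughout, summed to 16.4 to 17.3 CPM in mei-p26, 576 to 989 in wh7 and 29.9 to 64.5 in w1118. No nervous system marker of 4 passed 3 counts in every library, and miR-124-3p was at 0 in all. The part of these tissues in the family's values was not tested.

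The 3p arms of miR-2a, miR-2b and miR-13b were abundant in all 3 genotypes, and no family member that could be tested passed in any comparison. Of 15 names, 9 passed the filter on low counts and 6 did not. In mei-p26 against w1118, 0 of 9 tested names were called by the edgeR quasi-likelihood test at an adjusted p of 0.05, while 34.0% of all 150 tested rows were. Unadjusted p-values under 0.05 numbered 0 of 9 there, beside 44.0% of all rows, and 0 were called by DESeq2 or limma-voom. In wh7 against w1118 the call was again 0 of 9, with 15.3% of all rows called, 0 at an unadjusted p under 0.05 (28.7% of all rows) and 0 with either other tool. In mei-p26 against wh7 it was 0 of 9, beside 27.3% of all rows, with 1 at an unadjusted p under 0.05 (34.0% of all rows) and 0 with DESeq2 or limma-voom. The median log2 fold change of the 9 names was 0.23 in mei-p26 against w1118, where that of all rows was 0.083. It was -0.14 against 0.078 for all rows in wh7 against w1118, and 0.34 against 0.13 in mei-p26 against wh7. Each genotype's libraries serve 2 of the comparisons, so these are not independent. The median size of the change, whatever its sign, was 0.23 for the family and 0.66 for all rows in mei-p26 against w1118, 0.15 and 0.49 in wh7 against w1118, and 0.37 and 0.51 in mei-p26 against wh7. In whole ovaries, fewer cells of a type and less miRNA per cell cannot be told apart.

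**Figure D1:**
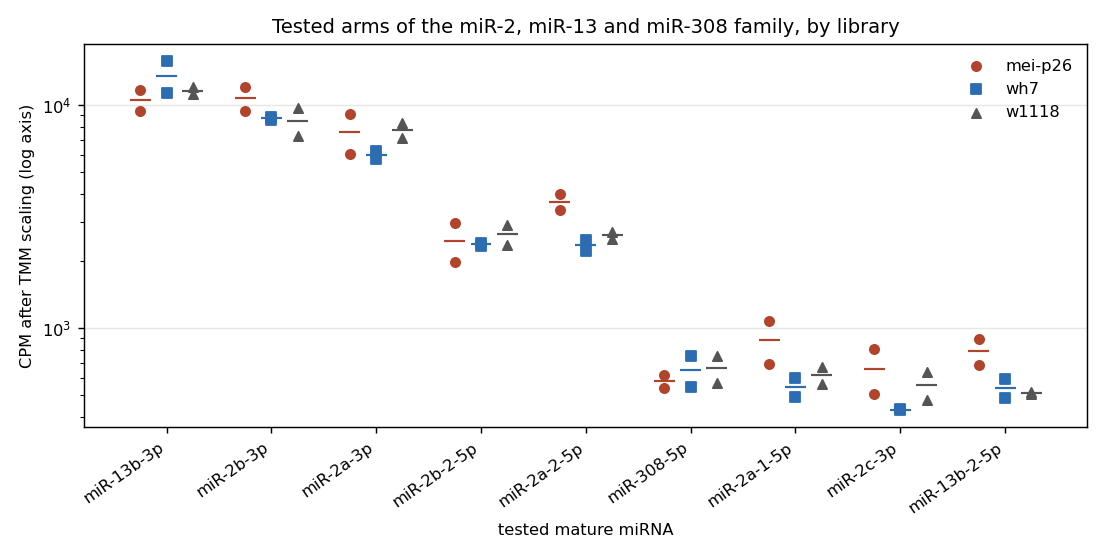
CPM after TMM scaling (log axis) of the 9 tested arms, ordered by their mean in w1118; points are libraries (2 per genotype) and short lines are means. The 3 abundant 3p arms lie between 5733 and 15727 CPM in every library, and miR-2a-2-5p is higher in both mei-p26 libraries than in the other 4.

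The 3 abundant 3p arms carried most of the family. miR-13b-3p was at 11684 and 9379 CPM in mei-p26, 11405 and 15727 in wh7, and 11203 and 12067 in w1118. wh7 held both the highest library and 1 within the span of w1118, and the libraries of all 3 genotypes overlapped. Its log2 fold change was -0.14 ± 0.24 (SE) in mei-p26 against w1118 (adjusted p = 0.677 by edgeR's quasi-likelihood test) and 0.22 ± 0.24 in wh7 against w1118 (adjusted p = 0.598). The sign in mei-p26 turned with scaling by total count.

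miR-2b-3p, whose precursors lie in spi and in Btk, was at 12073 and 9462 CPM in mei-p26, 8629 and 8901 in wh7, and 7315 and 9724 in w1118. The w1118 libraries spanned both wh7 libraries and overlapped with mei-p26, whereas both mei-p26 libraries were above both of wh7. The log2 fold change was 0.34 ± 0.24 in mei-p26 against w1118, with an approximate 95% interval of -0.16 to 0.84, and 0.30 ± 0.24 in mei-p26 against wh7. Against w1118 it was 0.13 without wh7 replicate 1, 0.14 without w1118 replicate 1 and 0.15 without mei-p26 replicate 1. For wh7 against w1118 it was 0.041 ± 0.24, with a sign that turned under RLE and upper-quartile scaling and in DESeq2.

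miR-2a-3p, made from the spi intron alone, was at 9089.7 and 6024 CPM in mei-p26, 6248 and 5733 in wh7, and 8322 and 7152 in w1118. Both wh7 libraries were below both w1118 libraries, and mei-p26 spanned w1118. In wh7 against w1118 the log2 fold change was -0.37 ± 0.25, with an interval of -0.89 to 0.15 and the lowest adjusted p of the family in that comparison (0.342 by edgeR). It was -0.15 without w1118 replicate 1 and -0.66 without w1118 replicate 2 (unadjusted p = 0.0347, adjusted p = 0.132 in the same test). In mei-p26 against w1118 it was -0.034 ± 0.25 (interval -0.55 to 0.48), a sign that total-count scaling turned. Its second row, on the other precursor, held 2131 and 1651 counts in mei-p26, 856 and 1175 in wh7, and 1000 and 904 in w1118. The row used held 2221 and 1738, 916 and 1274, and 1115 and 998 counts in the same libraries.

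The order of levels in w1118 was miR-13b-3p at 11635 ± 611 CPM (SD, n = 2), miR-2b-3p at 8519 ± 1704 and miR-2a-3p at 7737 ± 828. miR-13b-3p was above both of its neighbours in each w1118 library. The libraries of miR-2b-3p and miR-2a-3p overlapped. miR-2b-2-5p at 2638 ± 386 and miR-2a-2-5p at 2605 ± 137 followed and also overlapped. The lowest 4 tested arms, from miR-308-5p at 659.99 ± 133 to miR-13b-2-5p at 512 ± 4.402 CPM, overlapped with their neighbours in this order. Among 143 tested names, ranks in w1118 ran from 20 for miR-13b-3p to 68 for miR-13b-2-5p. In mei-p26 the first 2 were in the other order, miR-2b-3p at 10768 ± 1846 and miR-13b-3p at 10532 ± 1630.0 CPM, within their spread. In wh7 miR-13b-3p was at 13566 ± 3056 and miR-2b-3p at 8765 ± 192 CPM. Levels of different miRNAs also depend on how well each is captured in a library, which was not measured here.

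The 5p arms of the spi intron can each come from a single precursor. miR-2a-2-5p had the lowest adjusted p of the family both in mei-p26 against w1118 and in mei-p26 against wh7. It was at 3986 and 3383 CPM in mei-p26, 2217 and 2497 in wh7, and 2508 and 2702 in w1118. The mei-p26 libraries were above the other 4. Its log2 fold change was 0.50 ± 0.26 in mei-p26 against w1118, with an interval of -0.034 to 1.03 and an adjusted p of 0.138 (edgeR quasi-likelihood test). Against wh7 it was 0.64 ± 0.26, with an interval of 0.11 to 1.18 and an adjusted p of 0.0690, and this is the 1 name with an unadjusted p under 0.05 (0.0207). Scaling by total count brought miR-2a-2-5p past the threshold in both, at 0.76 (adjusted p = 0.0257) against w1118 and 0.82 (adjusted p = 0.0211) against wh7. That scaling moved the median of all rows by 0.27 and 0.19 in these comparisons. Relative to the median of all rows the change against w1118 was 0.42 with TMM and 0.41 with total counts. Without mei-p26 replicate 2 the change against wh7 was 0.80 and passed (adjusted p = 0.0445), but leaving out any other library gave 0.43 to 0.69 with adjusted p-values of 0.0986 to 0.583, the lowest change being without wh7 replicate 1. Against w1118, the change was 0.26 without w1118 replicate 2 and 0.28 without wh7 replicate 1, and at most 0.58 with another library left out.

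miR-2a-1-5p was at 1076 and 693 CPM in mei-p26, 600.3 and 490.5 in wh7, and 672 and 559 in w1118. Both mei-p26 libraries were again above the other 4, the lower by little. The log2 fold change was 0.52 ± 0.34 against w1118 (adjusted p = 0.248) and 0.70 ± 0.34 against wh7 (adjusted p = 0.153). Against w1118 it was 0.093 without w1118 replicate 2, 0.17 without mei-p26 replicate 1 and 0.29 without wh7 replicate 1, and against wh7 it was 0.33 without mei-p26 replicate 1. miR-2b-2-5p, from the same intron, was at 2971 and 1972 CPM in mei-p26, 2339.7 and 2412 in wh7, and 2911 and 2365 in w1118. Its libraries overlapped between mei-p26 and each other genotype, with a log2 fold change of -0.094 ± 0.28 against w1118 (interval -0.67 to 0.48). That sign turned with scaling by total count.

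miR-13b-2-5p, the arm that marks the CCT2 copy, was at 683 and 894 CPM in mei-p26, 593 and 486 in wh7, and 515 and 509 in w1118. Both mei-p26 libraries were the highest. The change was 0.62 ± 0.34 on the log2 scale against w1118, with an interval of -0.085 to 1.33 (adjusted p = 0.158), and 0.55 ± 0.34 against wh7 (adjusted p = 0.257). Against w1118 it was 0.32 without w1118 replicate 2, 0.41 without wh7 replicate 1 and 0.39 without mei-p26 replicate 2. For wh7 against w1118 it was 0.072 ± 0.35, with a sign that turned under RLE scaling and DESeq2. miR-2c-3p was at 806 and 506 CPM in mei-p26, 429.7 and 432 in wh7, and 478 and 638 in w1118. Both wh7 libraries were the lowest, and mei-p26 overlapped with w1118. Its log2 fold change was 0.23 ± 0.36 in mei-p26 against w1118, -0.37 ± 0.37 in wh7 against w1118 (interval -1.14 to 0.40) and 0.60 ± 0.36 in mei-p26 against wh7. The mature sequences of miR-2a-3p, miR-2b-3p and miR-2c-3p are nearly the same, so reads may be split between them and the low count of miR-2c-3p is uncertain.

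miR-308-5p was at 540.2 and 613 CPM in mei-p26, 546 and 747 in wh7, and 754 and 566 in w1118, with all 3 genotypes overlapping. The log2 fold changes were -0.19 ± 0.34 in mei-p26 and -0.024 ± 0.34 in wh7 against w1118, and both signs turned with scaling by total count. The 3p arm of this precursor, which holds the family seed, had 0 and 1 counts in mei-p26, 1 and 0 in wh7, and 2 and 0 in w1118. With 309, 246 and 180 counts of the 5p arm in the same genotypes, nearly all miR-308 counts were on the arm without that seed. A library's floor of 3 counts stood at 12.0 to 20.8 CPM, so no fold change is given for miR-308-3p.

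Counting libraries that did not overlap, 3 of 9 names were higher in mei-p26 than in w1118 and 0 were lower, beside 65.3% of all rows that did not overlap in either direction. In wh7 against w1118, 0 were higher and 3 lower, beside 59.3% of all rows. In mei-p26 against wh7, 5 were higher and 0 lower, beside 61.3%. The approximate 95% intervals of the 27 log2 fold changes reached from -1.14 to 1.41 at their widest ends. For miR-2a-1-5p in mei-p26 against wh7 the interval reached 1.41, whereas for miR-13b-3p the bounds of all 3 comparisons lay between -0.87 and 0.72. In the authors' deposited table, adjusted p-values of the 12 rows of the tested names ran from 0.451 to 0.967 for mei-p26 and from 0.306 to 0.977 for wh7 against w1118, with 0 under 0.05 in either.

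**Figure D2:**
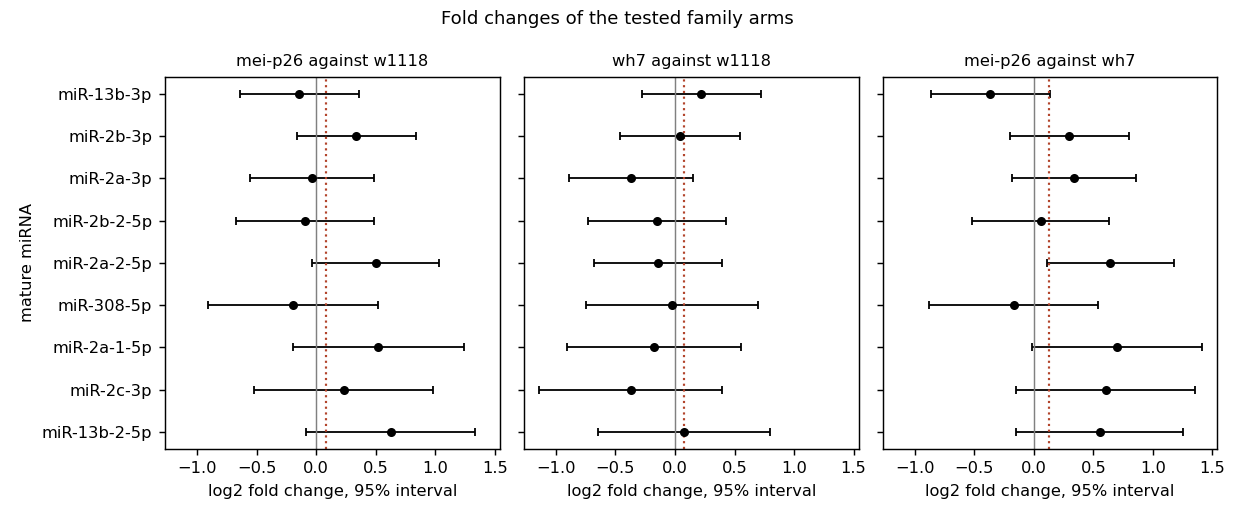
Log2 fold changes of the 9 tested arms in each comparison (points) with approximate 95% intervals (bars); the grey line marks 0 and the dotted line the median of all 150 rows. Only the interval of miR-2a-2-5p in mei-p26 against wh7, 0.11 to 1.18, leaves out 0, and its adjusted p is 0.0690.

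The 6 names below the filter held few or no counts. miR-13a-5p and miR-2c-5p had 0 counts in every library. miR-13a-3p had 10 and 6 counts in mei-p26, 5 and 2 in wh7, and 2 and 1 in w1118. Summed over libraries and set against library totals, the mei-p26 to w1118 ratio was 3.31, with an exact 95% counting interval of 0.948 to 17.7. miR-2b-1-5p had 6 and 14 counts in mei-p26, 2 and 4 in wh7, and 3 and 7 in w1118. The ratio of mei-p26 to wh7 was 2.63 (1.02 to 8.003) and that of mei-p26 to w1118 was 1.24 (0.555 to 2.97). These intervals cover counting error only and not the spread between libraries. The ratios use plain library totals and not TMM. In mei-p26 against wh7, total-count scaling raised the median log2 fold change of all rows by 0.19. Whether the interval from 1.02 would leave out 1 with TMM was not computed. The last names, miR-13b-1-5p and miR-308-3p, had 1 and 4 counts in all 6 libraries.

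Since mature 3p arms of different copies are identical, the copies were told apart by the counts of their 5p arms. The 3p rows of a name also differed in count, most for miR-2a-3p, but the sources used do not say why. For miR-13b, the 5p arm of mir-13b-1 had 1 count, in wh7 replicate 1, and that of mir-13b-2 had 167 and 258 counts in mei-p26, 87 and 108 in wh7, and 69 and 71 in w1118. In all 6 libraries the mir-13b-1 arm was 0.131% of both (exact Clopper-Pearson 95% interval 0.00333 to 0.730%). For miR-2b, the arm of mir-2b-1, the Btk copy, was 0.820% and 2.40% of both 5p arms in mei-p26, 0.580% and 0.741% in wh7, and 0.763% and 2.08% in w1118. Its intervals in the 6 libraries lay between 0.0703 and 4.23%. The rest was on the arm of the copy in the spi intron. All 3 genotypes therefore had most of their 5p counts of miR-2b on the spi copy and of miR-13b on the CCT2 copy. The share of 5p counts need not equal the share of 3p counts made by each copy. For mir-2c, which lies beside mir-13b-1, the 5p arm had 0 counts in every library and the 3p arm had 63 to 197. If those 3p counts are truly of miR-2c-3p, a copy with few or no 5p counts may still give 3p counts. Reads may be split between miR-2c-3p and the nearly identical miR-2a-3p and miR-2b-3p, so mir-2c cannot settle this.

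For miR-2a both copies lie in spi, and the arm of mir-2a-1 was 21.3% and 17.01% of both 5p arms in mei-p26, 21.3% and 16.4% in wh7, and 21.1% and 17.1% in w1118. The intervals were 19.01 to 23.6% and 14.9 to 19.3% in mei-p26, 17.5 to 25.6% and 13.7 to 19.5% in wh7, and 17.3 to 25.3% and 13.8 to 20.9% in w1118. In each genotype the library numbered 1 was the higher, by more than the genotypes differed from one another. The genotypes overlapped throughout.

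Ratios of counts within a library do not depend on scaling. miR-2b-2-5p over miR-2a-2-5p was 0.745 and 0.583 in mei-p26, 1.06 and 0.966 in wh7, and 1.16 and 0.875 in w1118. In mei-p26 each library was below the other 4. Over miR-2a-1-5p, the same arm was 2.76 and 2.85 in mei-p26, 3.90 and 4.92 in wh7, and 4.33 and 4.23 in w1118, and mei-p26 was again below. The ratio of miR-2a-2-5p to miR-2a-1-5p, 4.29 ± 0.83 in mei-p26, 4.39 ± 0.99 in wh7 and 4.28 ± 0.78 in w1118 (SD, n = 2), overlapped in all. In these libraries miR-2b-2-5p thus stood lower beside the other 2 arms of the spi intron in mei-p26 than in wh7 or w1118. With 2 libraries against 2, the smallest two-sided p of an exact permutation test is 0.333, which these differences reached and cannot go below. Both ratios share miR-2b-2-5p, so they are not independent. How often ratios of other miRNA pairs do not overlap between genotypes was not counted.

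**Figure D3:**
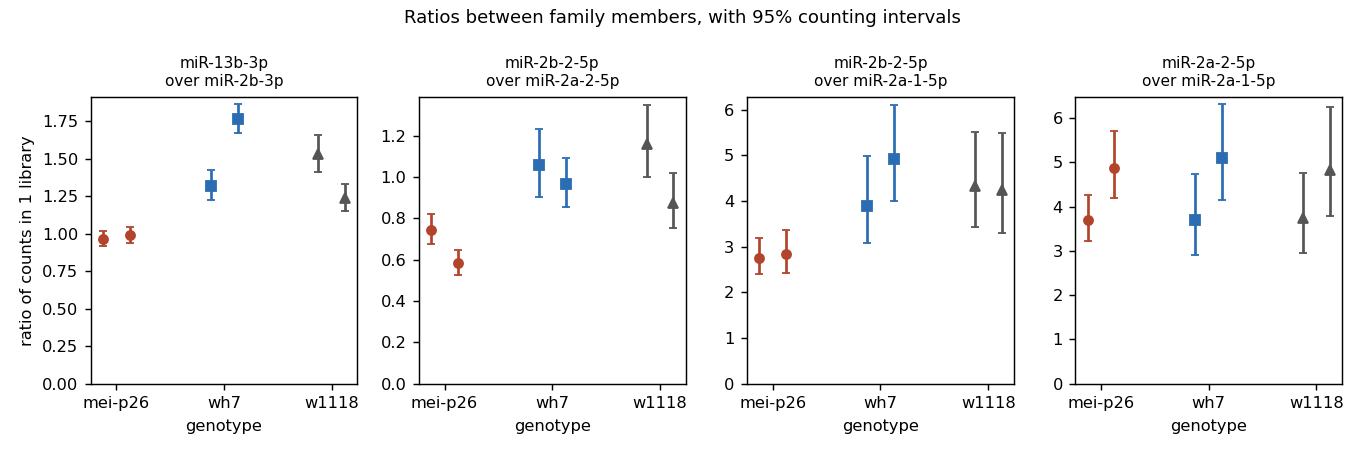
Ratios of counts between family members in each library, with 95% counting intervals (bars); panels show miR-13b-3p over miR-2b-3p, and pairs of the spi intron 5p arms. In the first 3 panels both mei-p26 libraries lie below the other 4; in the last, genotypes overlap and replicates differ.

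Among the abundant 3p arms, miR-13b-3p over miR-2b-3p was 0.968 and 0.991 in mei-p26, 1.32 and 1.77 in wh7, and 1.53 and 1.24 in w1118. Each mei-p26 library was below 1, with counting intervals that included 1, and below the other 4 (exact permutation p = 0.333 against each genotype, the smallest possible). miR-13b-3p over miR-2a-3p was 1.29 and 1.56 in mei-p26, 1.83 and 2.74 in wh7, and 1.35 and 1.69 in w1118. Both wh7 libraries were the highest here, and mei-p26 overlapped with w1118. miR-2b-3p over miR-2a-3p was 1.33 and 1.57 in mei-p26, 1.38 and 1.55 in wh7, and 0.879 and 1.36 in w1118. Here w1118 replicate 1 was the only library below 1. The lowest wh7 library was above the higher of w1118 by less than the counting intervals of either, which were 1.27 to 1.51 and 1.25 to 1.48. That order depends on the row read. The other rows of miR-2b-3p and miR-2a-3p held 1251 and 856 counts in wh7 replicate 1, and 1355 and 904 in w1118 replicate 2. With those rows w1118 replicate 2 was the higher, and wh7 overlapped with w1118.

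The balance of arms was compared as the log2 ratio of the 5p to the 3p count (1 was added to each) in the 4 family precursors whose arms each averaged 10 counts or more. The 3p rows of copies held nearly the same counts for miR-13b-3p and miR-2b-3p, and differed more for miR-2a-3p. Its rows for mir-2a-1 and mir-2a-2 held 1000 and 1115 counts in w1118 replicate 1, and 2131 and 2221 in mei-p26 replicate 1. Each ratio thus sets the 5p arm of 1 copy against a 3p count largely common to copies. That largely shared 3p count was above the 5p count in all 4, in every library. How much 3p each copy alone gave was not measured, so an excess of 3p within each copy cannot be read from this. In w1118 the log2 ratio was -4.49 ± 0.088 for dme-mir-13b-2, -3.49 ± 0.041 for dme-mir-2a-1, -1.56 ± 0.23 for dme-mir-2a-2 and -1.68 ± 0.50 for dme-mir-2b-2 (SD, n = 2). In limma, 0 of 4 passed in mei-p26 against w1118 and 0 of 4 in wh7 against w1118, beside 2.00% of the 50 precursors tested in each. Between the mutants it was 0 of 4 beside 0.00%. Unadjusted p-values under 0.05 numbered 0 of 4 in each, beside 16% of precursors in mei-p26 against w1118, 22% in wh7 against w1118 and 10% in mei-p26 against wh7.

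The arm ratio of mir-13b-2 was -4.09 and -3.39 in mei-p26, -4.25 and -5.003 in wh7, and -4.42 and -4.55 in w1118. Here mei-p26 was above the other 4 libraries. The difference was 0.75 ± 0.41 (SE) against w1118 (limma, adjusted p = 0.376) and 0.89 ± 0.41 against wh7 (adjusted p = 0.499). Against w1118 it was 0.40 without mei-p26 replicate 2 and 1.10 without mei-p26 replicate 1. For mir-2a-1 the ratio was -3.01 and -3.04 in mei-p26, -3.27 and -3.42 in wh7, and -3.46 and -3.52 in w1118. Each genotype stood apart from the others there, with a difference of 0.46 ± 0.30 in mei-p26 and 0.15 ± 0.30 in wh7 against w1118. For mir-2a-2 the mei-p26 difference from w1118 was 0.55 ± 0.34 (interval -0.25 to 1.36) and for mir-2b-2 it was -0.45 ± 0.36 (interval -1.32 to 0.41). Ratios did not overlap between mei-p26 and w1118 for 3 of 4 precursors, beside 52.0% of all 50. The corresponding counts were 1 of 4 beside 52.0% in wh7 against w1118 and 4 of 4 beside 50% in mei-p26 against wh7. In the latter, mir-2b-2 was the lower in mei-p26 and the others were higher. For mir-2a-2 this was nearly a tie, with the lower mei-p26 library at -1.188 and the higher wh7 library at -1.197.

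Counting each name once, the family summed to 42977 and 33001 CPM in mei-p26, 33069 and 37452 in wh7, and 34730 and 36339 in w1118. The libraries of the 3 genotypes overlapped, at 37989 ± 7054 CPM in mei-p26, 35261 ± 3099 in wh7 and 35534 ± 1138 in w1118 (SD, n = 2). Without TMM, as a share of library totals that include repeated rows, the family took 4.58% and 3.82% in mei-p26, 3.24% and 3.65% in wh7, and 3.04% and 3.52% in w1118. With each name counted once in the totals too, it took 4.76% and 3.95% in mei-p26, 3.35% and 3.79% in wh7, and 3.12% and 3.63% in w1118. On either scale both mei-p26 libraries were above the other 4, the lower by little. The 3 abundant 3p arms made up 75.9 ± 0.76% of family counts in mei-p26, 80.3 ± 1.12% in wh7 and 78.5 ± 1.67% in w1118. Of these, miR-13b-3p held 27.8 ± 0.87% in mei-p26, 38.2 ± 5.31% in wh7 and 32.7 ± 0.67% in w1118. Its share in each mei-p26 library, 27.2% and 28.4%, was below that in every other library, where it ran from 32.3% to 42.0%. All 5p arms together held 22.3 ± 1.02% in mei-p26, 18.4 ± 0.95% in wh7 and 19.9 ± 1.89% in w1118.

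**Figure D4:**
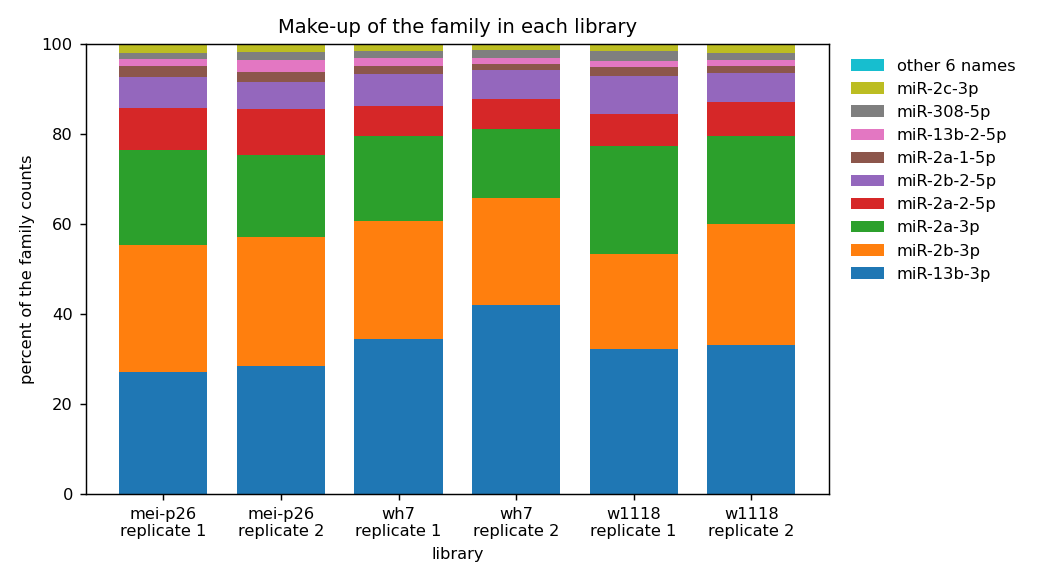
Percent of the family's counts held by each mature miRNA in each library, with each name counted once. The share of miR-13b-3p is 27.2% and 28.4% in mei-p26 and 32.3% to 42.0% in the other 4 libraries.

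Outside the family, miR-6-3p and miR-11-3p are known to have the same seed. miR-11, in an intron of the cell cycle gene E2f1, is known to limit cell death in fly embryos, and miR-6 belongs to a cluster of the early embryo. miR-11-3p was at 26213 and 23237 CPM in mei-p26, 20893 and 20951 in wh7, and 17958 and 20108 in w1118, which places it above every family member in every library. Both mei-p26 libraries were the highest, with a log2 fold change of 0.38 ± 0.22 against w1118 (adjusted p = 0.189 by edgeR). miR-6-3p was at 85.9 and 52.0 CPM in mei-p26, 2169 and 1278 in wh7, and 82.1 and 165 in w1118. It passed in wh7 against w1118 (log2 fold change 3.79 ± 0.45, adjusted p = 2.51e-06), where 0 of the family's 9 names did.

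The 3p arms with this seed, family and kin together, summed to 54339 ± 7997 CPM in mei-p26, 51423 ± 2273 in wh7 and 47625 ± 3163 in w1118 (SD, n = 2), with overlapping libraries. The family held 54.2 ± 2.83% of that sum in mei-p26, 55.9 ± 3.10% in wh7 and 59.8 ± 0.64% in w1118. miR-6-3p held 0.125 ± 0.026% in mei-p26, 3.38 ± 1.37% in wh7 and 0.256 ± 0.11% in w1118. Its rise in wh7 was thus small beside the counts of the family, and the sum in wh7 did not stand apart from that in w1118 by more than their spread.

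**Figure D5:**
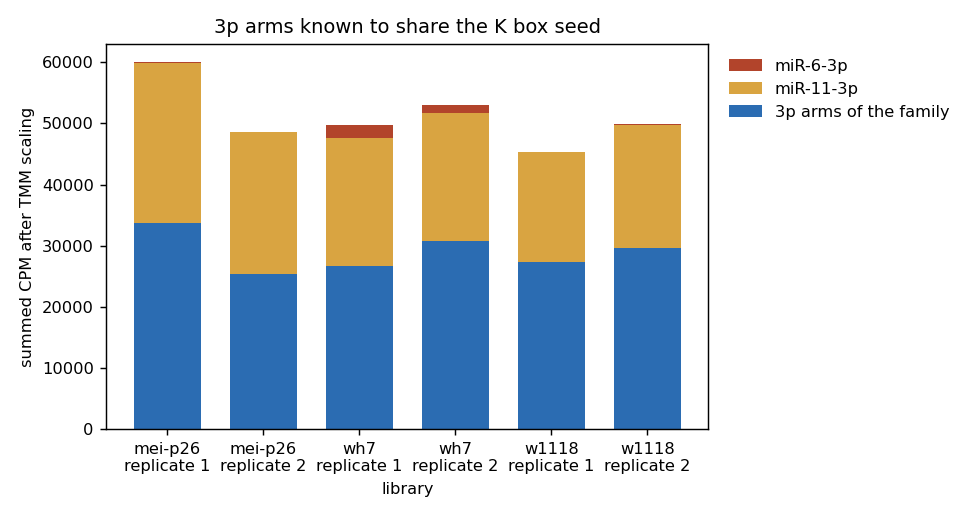
Summed CPM after TMM scaling of the 3p arms known to share the K box seed, in each library; segments are the 3p arms of the family, miR-11-3p and miR-6-3p. The sum runs from 45388 to 59994 CPM, and the miR-6-3p segment is largest in wh7, at 2169 and 1278 CPM.

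Outside the family, the 3 tested miRNAs whose pattern over the 6 libraries was nearest that of miR-13b-3p, the most abundant member in wh7 and w1118, were miR-283-5p, miR-276b-3p and miR-995-3p. Likeness was measured as the root mean square difference of log2 CPM, each centred on its own mean, and was 0.150, 0.176 and 0.198 in that order, against a median of 0.543 over all names. Other family arms stood farther off. The nearest was miR-308-5p at 0.232, ahead of miR-2b-2-5p at 0.254, miR-2b-3p at 0.312 and miR-2a-3p at 0.360. miR-2c-3p at 0.419 and miR-2a-2-5p at 0.421 came after these. miR-13b-2-5p, from the CCT2 copy of miR-13b itself, was at 0.491, next to miR-2a-1-5p at 0.492. This measure also takes in counting noise, which is larger at low counts. miR-13b-2-5p had 69 to 258 counts in a library, and miR-13b-3p had 1501 to 3495. The part of that noise in the distances was not tested.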

How the data were processed

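Ovarian small RNA of 3 genotypes, 2 libraries each, was made into libraries with the QIAseq miRNA kit, which assigns molecular identifiers, and read single-end, per the labels' protocols. The submitters' processing notes name bcl2fastq 2.20, Trimmomatic and the BDGP5 build. Not given in the sources used here are the aligner, the counter, the miRNA annotation and the use of identifiers, so counts may include PCR copies. The deposited table held raw read counts per mature miRNA and precursor, per the file headers. The authors' CPM values equalled count over column total to within 0.005 and were not tested. The authors' signed fold changes (a score with a minus sign for lower) and p-values, deposited beside them, came from an unnamed test. Control columns headed W118 were taken as w1118.

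Counts were tested over all 474 rows with edgeR 4.0.16 (R 4.3.3), TMM scaling, filterByExpr with a minimum count of 10 and the quasi-likelihood test, with all 6 libraries in 1 fit with 3 residual degrees of freedom. Benjamini-Hochberg adjustment ran over the 150 rows kept, at a threshold of 0.05. SE was taken as |log2 fold change| divided by sqrt(F), an approximation, and intervals use 19.7 degrees of freedom. Arm ratios were tested with limma 3.58.1, and DESeq2 1.42.0 was an alternative. Other values used scipy 1.17.1. The edgeR test was tested on simulated data. Library totals of 144175 to 249262 limit names with few counts. Members, lists and tests were chosen with earlier results of these data known. Named outside the family are miRNAs known to share its seed, tissue markers and the 3 nearest patterns.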

Additional observations from a re-analysis of the deposited data

How the results depend on the processing

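Of 540 recomputed fold changes and arm ratios, 39 turned sign, and none of these passed in either form. Scaling by total count called 1 family name, miR-2a-2-5p, in mei-p26 against w1118 and 1 in mei-p26 against wh7, and leaving out each library in turn gave 0 to 1 calls in mei-p26 against wh7 and 0 in the other comparisons. Total-count scaling put the family sum at 32807 CPM in w1118, and the other row of repeated names put the miR-13b-3p share there at 33.5%. No other count of family calls changed.

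Signs turned with total-count scaling for miR-308-5p (0.068 in wh7 against w1118, 0.089 in mei-p26 against w1118, 0.021 in mei-p26 against wh7) and, in mei-p26 against w1118, for miR-13b-3p (0.12), miR-2a-3p (0.23) and miR-2b-2-5p (0.17). In wh7 against w1118, miR-13b-2-5p was at -0.016 with RLE scaling and -0.0099 with DESeq2, and miR-2b-3p at -0.039, -0.034 and, with upper-quartile scaling, -0.014. miR-2b-2-5p in mei-p26 against wh7 was at -0.092 with upper-quartile scaling and -0.080 with only those groups fitted. The cause was not tested. When each library was left out in turn, log2 fold changes in wh7 against w1118 ran from -0.17 to 0.25 for miR-13b-2-5p, -0.49 to 0.067 for miR-2a-1-5p, -0.48 to 0.12 for miR-2b-2-5p, -0.039 to 0.075 for miR-2b-3p and -0.40 to 0.31 for miR-308-5p. In mei-p26 against w1118 they ran from -0.44 to 0.20 for miR-2a-3p, -0.54 to 0.13 for miR-2b-2-5p, -0.14 to 0.51 for miR-2c-3p and -0.68 to 0.016 for miR-308-5p. In mei-p26 against wh7 they ran from -0.017 to 0.65 for miR-2a-3p, -0.29 to 0.37 for miR-2b-2-5p and -0.50 to 0.043 for miR-308-5p. Other values also moved by over 1.5 times without 1 library, and none of those moves made a call apart from the one named for miR-2a-2-5p. Arm ratios in wh7 against w1118 ran from -0.52 to 0.24 for mir-13b-2 and -0.54 to 0.17 for mir-2b-2.

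With the replicate block, 0 family names passed in each comparison, and calls over all rows were 50 in mei-p26 against w1118, 26 in wh7 against w1118 and 41 between the mutants. The labels do not say what same-numbered libraries share beyond the number. Their deviations correlated at 0.0895 (mei-p26 and wh7), -0.33 (wh7 and w1118) and -0.016 (mei-p26 and w1118). Whether they share a batch was not tested. Testing only rows that averaged 50 counts or more left 26 calls in mei-p26 against w1118, 9 in wh7 against w1118 and 26 between the mutants, from fewer rows tested. Without wh7 replicate 1 or 2, wh7 against w1118 had 10 or 13 calls.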
